A study of Mus musculus with 15 samples.

Results

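The genes of sterol and fatty acid synthesis were followed in the forebrain of mice exposed to hypoxic ischemia, in which blood flow and oxygen are both reduced, with and without erythropoietin. The set holds 35 genes named by symbol: the enzymes of cholesterol synthesis, the proteins that sense and move sterols, the enzymes of fatty acid synthesis and 3 genes of sterol efflux. Of these, 34 had a probe set under their symbol alone, and all 34 were among the 13168 genes tested. The level of Acat2, an acetyl-CoA acetyltransferase that acts at the entry to the pathway, was not analysed here. Each gene was read from its brightest probe set, and levels are log2(intensity + 16) as deposited, so differences of dim genes are understated and levels of different genes are not compared. Total RNA of forebrain was measured on 15 Affymetrix arrays in 3 groups of 5: vehicle before a sham procedure (VEH-Sham 1 to 5), vehicle before hypoxic ischemia (VEH-HI 6 to 10) and erythropoietin, the hormone of red blood cell formation, before hypoxic ischemia (EPO-HI 11 to 15). The labels give erythropoietin at 5 U per g into the peritoneum and place the injection 1 h ahead of the procedure. There was no group with erythropoietin and a sham procedure. Age, sex, strain and the time from injury to sampling are not stated in the labels. Nor do the labels call the samples separate animals, so the p-values measure the spread between samples, which may be technical.

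Cholesterol is built from acetyl-CoA through mevalonate, the isoprenoids, squalene and lanosterol. The brain makes its own supply, because the blood-brain barrier holds back the lipoproteins of the blood. When membrane sterol is low, Scap carries the membrane-bound factors encoded by Srebf1 and Srebf2 to the Golgi for cleavage, and the released factors raise transcription of the enzymes; when sterol is high, Insig proteins hold Scap back, and oxysterols act through liver X receptors on efflux genes such as Abca1.

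RefSeq (GRCm38.p6) gave promoters, from 250 bases before to 50 bases after the start, for 27 of the 35 genes, and 4 motifs were searched on both strands: the sterol regulatory element core TCACNCCA, the NF-Y box CCAAT, the Sp1 box GGGCGG and the E-box CACGTG. Sterol elements, NF-Y and Sp1 are known to act side by side on sterol genes, so these stretches show the letters around the starts of genes whose levels are described below. Msmo1 and Hmgcs1 are the cholesterol enzymes whose promoter held the sterol core, Cyp51 and Nsdhl were added after their values were seen because they had the smallest p of the enzymes for VEH-HI minus VEH-Sham and hold an NF-Y box, and Abca1 is an efflux gene. Each stretch is 120 bases long on the strand of its gene, and capitals mark the motifs.
Msmo1: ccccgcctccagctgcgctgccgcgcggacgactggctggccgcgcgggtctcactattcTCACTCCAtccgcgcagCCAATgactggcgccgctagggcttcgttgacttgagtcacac
Hmgcs1: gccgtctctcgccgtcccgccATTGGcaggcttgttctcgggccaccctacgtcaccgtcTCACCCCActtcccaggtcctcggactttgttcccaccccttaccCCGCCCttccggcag
Cyp51: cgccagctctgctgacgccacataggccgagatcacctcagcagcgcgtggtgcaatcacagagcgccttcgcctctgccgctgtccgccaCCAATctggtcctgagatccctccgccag
Nsdhl: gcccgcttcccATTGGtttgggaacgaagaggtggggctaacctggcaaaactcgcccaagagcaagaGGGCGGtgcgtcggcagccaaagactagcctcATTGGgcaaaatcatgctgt
Abca1: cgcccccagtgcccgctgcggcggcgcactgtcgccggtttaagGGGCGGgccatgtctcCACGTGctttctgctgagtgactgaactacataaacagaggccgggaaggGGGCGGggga
The stretch of Msmo1 is chr8:64733696-64733815 on the minus strand, with the sterol core TCACTCCA starting 177 bases and an NF-Y box 160 bases before the start. That of Hmgcs1 is chr13:119690154-119690273 on the plus strand, with the sterol core TCACCCCA at 137, an NF-Y box on the other strand at 176 and a Sp1 box on the other strand at 92 bases before the start. That of Cyp51 is chr5:4104698-4104817 on the minus strand, with an NF-Y box at 29 bases. That of Nsdhl is chrX:72918401-72918520 on the plus strand, with NF-Y boxes on the other strand at 109 and 20 bases and a Sp1 box at 52 bases. That of Abca1 is chr4:53159983-53160102 on the minus strand, with an E-box at 147 bases and Sp1 boxes at 163 and 97 bases.

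A promoter was given for 15 of the 18 listed cholesterol enzymes, Acat2 among them, but not for Fdps, Fdft1 and Sqle. Of these 15, 2 held the sterol core, 14 an NF-Y box, 14 a Sp1 box and 3 an E-box. Over all 27025 genes with a promoter the shares were 4.97% for the sterol core, 41.1% for the NF-Y box, 38.2% for the Sp1 box and 8.09% for the E-box; over the 10610 tested genes with one, a background added after the counts were seen, they were 4.57%, 42.5%, 66.7% and 11.3%. Of single promoters, 32851 in all, 4.36% held the sterol core, 37.4% the NF-Y box, 35.7% the Sp1 box and 7.15% the E-box. Of 5 fatty acid enzymes with a promoter, 0 held the sterol core, 2 an NF-Y box (Acly and Fasn) and 2 a Sp1 box (Acly and Fads2). Srebf2 was the sensing gene, and Apoe the efflux gene, with the sterol core. Motifs of different kinds overlapped in 0 places in these promoters. A match is a stretch of letters, not a site in use.

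The arrays fell into sets that the labels do not record. VEH-Sham 1 to 4 had median intensities of 55.3 to 57.9, and VEH-Sham 5 and the 10 hypoxic ischemia arrays had 39.2 to 44.4, at the same trimmed mean of 150.0. For most of the contrast with sham, the array set and the injury therefore cannot be told apart, and VEH-Sham 5 is the lone sham array of its set. For most genes named below the difference from VEH-Sham 5 alone is given too; all such values rest on that 1 array.

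After hypoxic ischemia, transcripts of the cholesterol pathway were lower. Of the 17 cholesterol enzymes tested, 12 fell, 0 rose and 5 did not pass at an adjusted p of 0.05 in limma; 11.5% of all genes fell and 11.9% rose. The median difference VEH-HI minus VEH-Sham was -0.42 over the enzymes and -0.02 over all genes. Against VEH-Sham 5 alone, the median was -0.66 over the enzymes and 0.0026 over all genes. The VEH-HI mean was below VEH-Sham 5 for 17 of 17 enzymes and for 49.6% of all genes. That array was the highest sham sample for 12 of the 17 enzymes. In forebrain RNA, fewer cells of a type and less RNA per cell cannot be told apart.

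The count depended on single samples and on the scale. It was 6 without VEH-HI 6 and 7 without VEH-HI 9, the pair of samples that were the lowest of their group for 7 and 10 of the 17 enzymes. With every array set to the same median, which raised the median difference of all genes by 0.24 and made 89.9% of called genes higher (51% as deposited), 3 enzymes stayed lower: Fdps, Cyp51 and Nsdhl. With array set entered as a block, 0 members passed against 0.00759% of all genes (1 gene), and the smallest adjusted p was 0.057 for Nsdhl. In the block fit VEH-Sham 5 alone links the sets, and the median difference of the enzymes was -0.66. Without VEH-Sham 5, 11 of the 17 enzymes fell, against 18.8% of all genes.

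**Figure D1:**
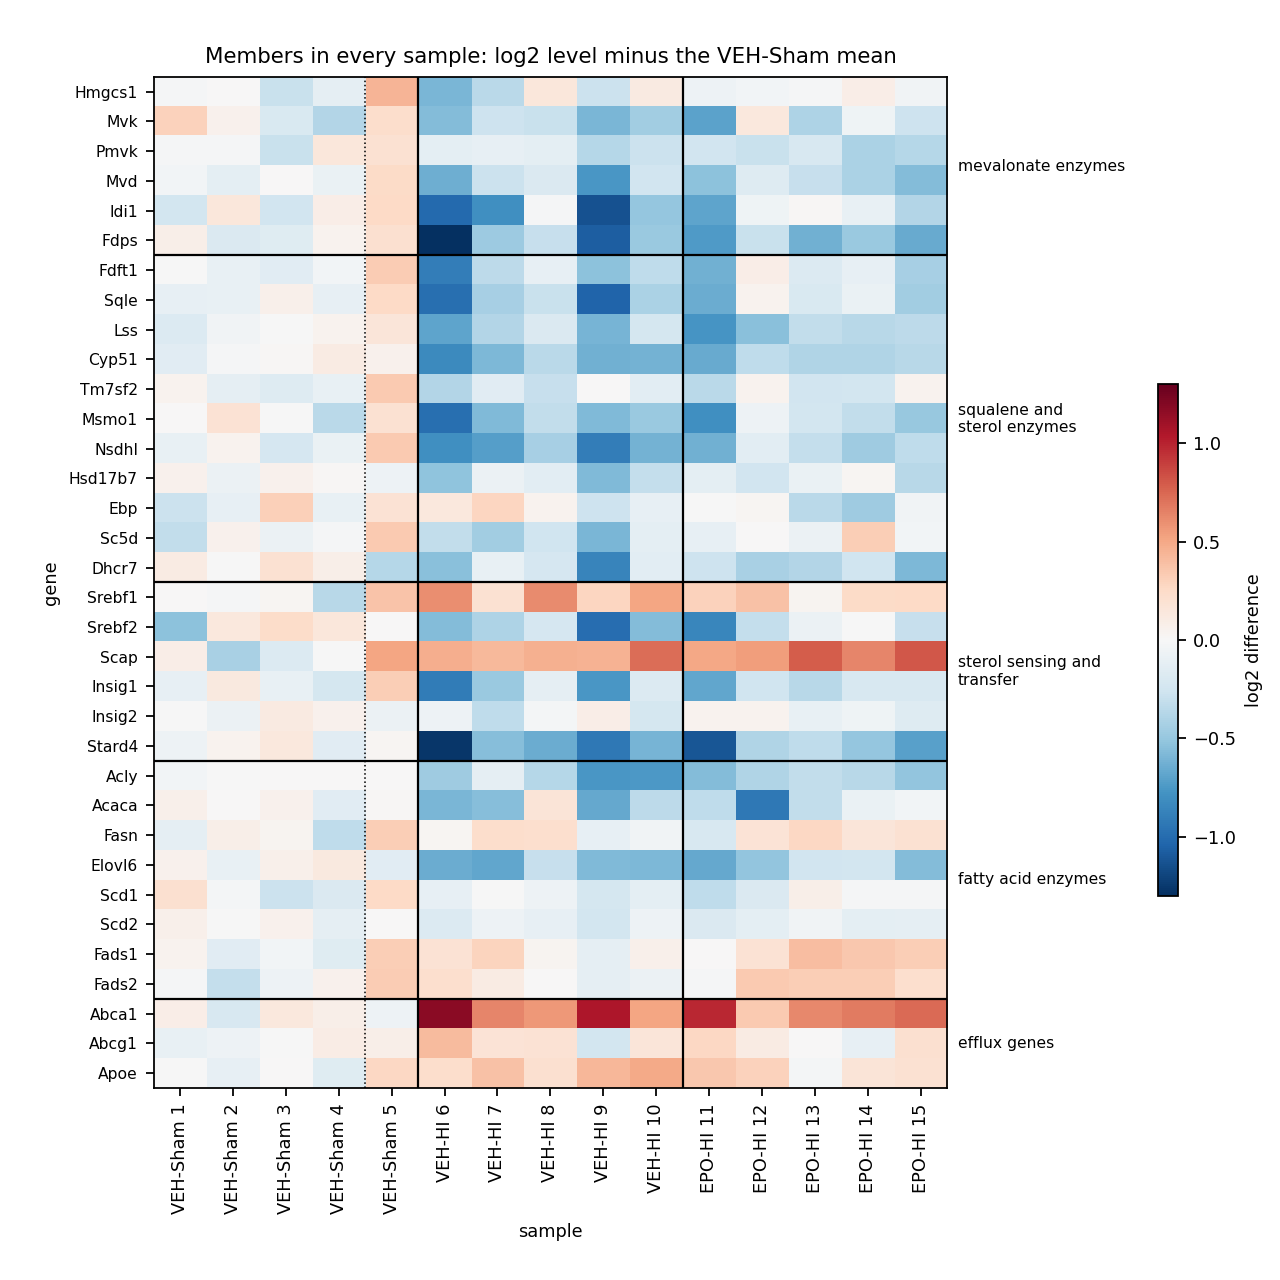
Level of each of the 34 genes in each of the 15 samples, as the log2 difference from the mean of the 5 VEH-Sham samples (blue lower, red higher); solid lines part the groups and the gene roles, and the dotted line sets VEH-Sham 5 apart. Most cholesterol enzymes are blue in VEH-HI 6, VEH-HI 9 and EPO-HI 11, and Abca1 is red in all 10 hypoxic ischemia samples.

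Among the 6 mevalonate and isoprenoid enzymes, 4 fell. Fdps, which makes farnesyl diphosphate, the branch point of sterols and other isoprenoids, read 10.91, 10.64, 10.67, 10.88 and 11.04 in VEH-Sham 1 to 5, 9.51, 10.36, 10.53, 9.76 and 10.35 in VEH-HI 6 to 10, and 10.09, 10.54, 10.21, 10.35 and 10.17 in EPO-HI 11 to 15. All 10 hypoxic ischemia samples lay below all sham samples. The difference VEH-HI minus VEH-Sham was -0.73 (SE 0.15, adjusted p 0.00353), 39.6% lower on this scale, and -0.94 against VEH-Sham 5.

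Idi1, the isomerase that makes dimethylallyl diphosphate, read 9.90, 10.29, 9.89, 10.23 and 10.40 in sham, 9.13, 9.34, 10.12, 9.01 and 9.64 in VEH-HI, and 9.45, 10.08, 10.16, 10.04 and 9.76 in EPO-HI. VEH-HI 8 reached the sham range and the other VEH-HI samples were below it, while 3 EPO-HI samples lay inside it. It fell by 0.69 (SE 0.17, adjusted p 0.00901), and the difference from VEH-Sham 5 was -0.95.

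Mvd, the decarboxylase that closes the mevalonate steps, read 8.09, 8.00, 8.14, 8.04 and 8.38 in sham, 7.50, 7.85, 7.94, 7.37 and 7.88 in VEH-HI, and 7.60, 7.96, 7.83, 7.72 and 7.57 in EPO-HI. Sham did not overlap either injured group. The difference was -0.42 (SE 0.12, adjusted p 0.0198), and -0.67 against VEH-Sham 5. Without VEH-HI 6 or VEH-HI 9 the adjusted p rose to 0.0514 to 0.0534.

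Mvk, mevalonate kinase, read 8.18, 7.94, 7.68, 7.50 and 8.11 in sham, 7.32, 7.61, 7.59, 7.29 and 7.43 in VEH-HI, and 7.18, 8.02, 7.48, 7.82 and 7.61 in EPO-HI. The groups overlapped, since VEH-Sham 4 was below VEH-HI 7 and 8. The difference of -0.43 (SE 0.15, adjusted p 0.0443; -0.66 against VEH-Sham 5) was past the threshold by little and was lost in 8 of the 15 leave-outs, with adjusted p up to 0.12: without VEH-Sham 1, 2, 3 or 5, VEH-HI 6, 9 or 10, or EPO-HI 15.

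Hmgcs1, the synthase that makes HMG-CoA, read 12.65, 12.68, 12.38, 12.55 and 13.11 in sham, 12.08, 12.32, 12.82, 12.39 and 12.79 in VEH-HI, and 12.60, 12.63, 12.65, 12.76 and 12.62 in EPO-HI. The groups overlapped, and the difference of -0.20 (SE 0.13, adjusted p 0.294) did not pass; VEH-Sham 5 stood above every other sample, and against it the difference was -0.63. Hmgcs1 did pass after quantile normalization (-0.44, adjusted p 0.00914) and with the mean over its probe sets (-0.44, adjusted p 0.00853). Pmvk, phosphomevalonate kinase, was at -0.21 (SE 0.10, adjusted p 0.138; -0.40 against VEH-Sham 5).

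Of the 11 enzymes from squalene onward, 8 fell. Cyp51, the lanosterol demethylase, had the smallest p of the enzymes: it read 9.55, 9.68, 9.72, 9.81 and 9.76 in sham, 8.87, 9.12, 9.35, 9.08 and 9.09 in VEH-HI, and 9.04, 9.37, 9.31, 9.31 and 9.34 in EPO-HI. Every injured sample was below every sham sample. The difference was -0.60 (SE 0.09, adjusted p 0.00061), 34.3% lower, and -0.66 against VEH-Sham 5.

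Nsdhl, a dehydrogenase that takes part in removing methyl groups at carbon 4 of the sterol, read 9.62, 9.77, 9.50, 9.63 and 10.06 in sham, 8.92, 9.00, 9.29, 8.82 and 9.11 in VEH-HI, and 9.10, 9.58, 9.41, 9.26 and 9.39 in EPO-HI. VEH-HI did not overlap sham, and among EPO-HI samples EPO-HI 12 alone reached it. It fell by 0.69 (SE 0.11, adjusted p 0.000887); against VEH-Sham 5 the difference was -1.03, the furthest of the 34 genes below 0.

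Sqle, squalene epoxidase, a rate-controlling step of the sterol branch, read 10.03, 10.04, 10.21, 10.03 and 10.40 in sham, 9.16, 9.71, 9.85, 9.10 and 9.73 in VEH-HI, and 9.50, 10.19, 9.94, 10.05 and 9.69 in EPO-HI. VEH-HI did not overlap sham, and EPO-HI 12 and 14 lay inside the sham range. It fell by 0.63 (SE 0.15, adjusted p 0.00598; -0.90 against VEH-Sham 5).

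Msmo1, the sterol C4-methyl oxidase whose promoter is printed above, read 10.74, 10.93, 10.73, 10.39 and 10.94 in sham, 9.76, 10.17, 10.42, 10.17 and 10.26 in VEH-HI, and 9.94, 10.67, 10.50, 10.42 and 10.25 in EPO-HI. VEH-HI 8 was just above VEH-Sham 4, the lowest sham sample, as were EPO-HI 12, 13 and 14. It fell by 0.59 (SE 0.14, adjusted p 0.00571; -0.78 against VEH-Sham 5).

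Sc5d, a desaturase near the end of the pathway, read 7.75, 8.13, 7.99, 8.05 and 8.41 in sham, 7.75, 7.62, 7.81, 7.48 and 7.94 in VEH-HI, and 7.96, 8.08, 7.99, 8.39 and 8.03 in EPO-HI. VEH-HI overlapped sham and lay wholly below EPO-HI. Its difference of -0.35 (SE 0.12, adjusted p 0.0489; -0.69 against VEH-Sham 5) was lost in 12 of the 15 leave-outs, with adjusted p up to 0.116, and kept only without VEH-Sham 1, VEH-HI 10 or EPO-HI 14.

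The remaining enzymes that fell were Fdft1, squalene synthase, at -0.45 (SE 0.14, adjusted p 0.0272), Lss, which closes the sterol rings, at -0.41 (SE 0.12, adjusted p 0.0192), and Hsd17b7, a sterol ketoreductase, at -0.32 (SE 0.11, adjusted p 0.043). Against VEH-Sham 5 they were at -0.77, -0.58 and -0.25. Fdft1 lost the call without VEH-Sham 1, VEH-HI 6 or VEH-HI 9 (adjusted p 0.0508 to 0.0794) and Lss without VEH-HI 6 (0.0538). Hsd17b7 lost it without VEH-Sham 1, 2, 3 or 4, VEH-HI 6, 9 or 10, or EPO-HI 13 (0.0501 to 0.106). Of the 12 enzymes that fell, 6 kept the call in all 15 leave-outs: Idi1, Fdps, Sqle, Cyp51, Msmo1 and Nsdhl. With the mean over the probe sets of a gene, Msmo1 was at -0.27 (adjusted p 0.29) and Fdft1 at -0.19 (adjusted p 0.401), neither past the threshold.

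The other sterol enzymes did not pass: Tm7sf2, a sterol reductase, at -0.20 (adjusted p 0.209), Ebp, a sterol isomerase, at 0.02 (adjusted p 0.947), and Dhcr7, which makes cholesterol from 7-dehydrocholesterol, at -0.37 (adjusted p 0.0524). Against VEH-Sham 5 they were at -0.53, -0.17 and -0.0024. For Dhcr7, VEH-Sham 5 was the lowest sham sample, 8.28 against 8.64 to 8.85 in the other sham samples. Dhcr7 passed with a pseudocount of 64 (-0.33, adjusted p 0.0481) and after quantile normalization (-0.42, adjusted p 0.0365). It also passed without VEH-Sham 5 (adjusted p 0.0102), VEH-HI 7 (0.036) or VEH-HI 10 (0.0405).

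By sample, all VEH-HI values lay below all sham values for 7 of the 17 enzymes, against 4.09% of all genes. All VEH-HI values lay below VEH-Sham 5 for 15 of the 17 enzymes, Ebp and Dhcr7 being the exceptions; the share over all genes was 15.2%. All 10 injured samples lay below it for 14 of the 17, against 8.17% of all genes. Both counts rest on that 1 array, the highest sham sample for 12 of the 17 enzymes.

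**Figure D2:**
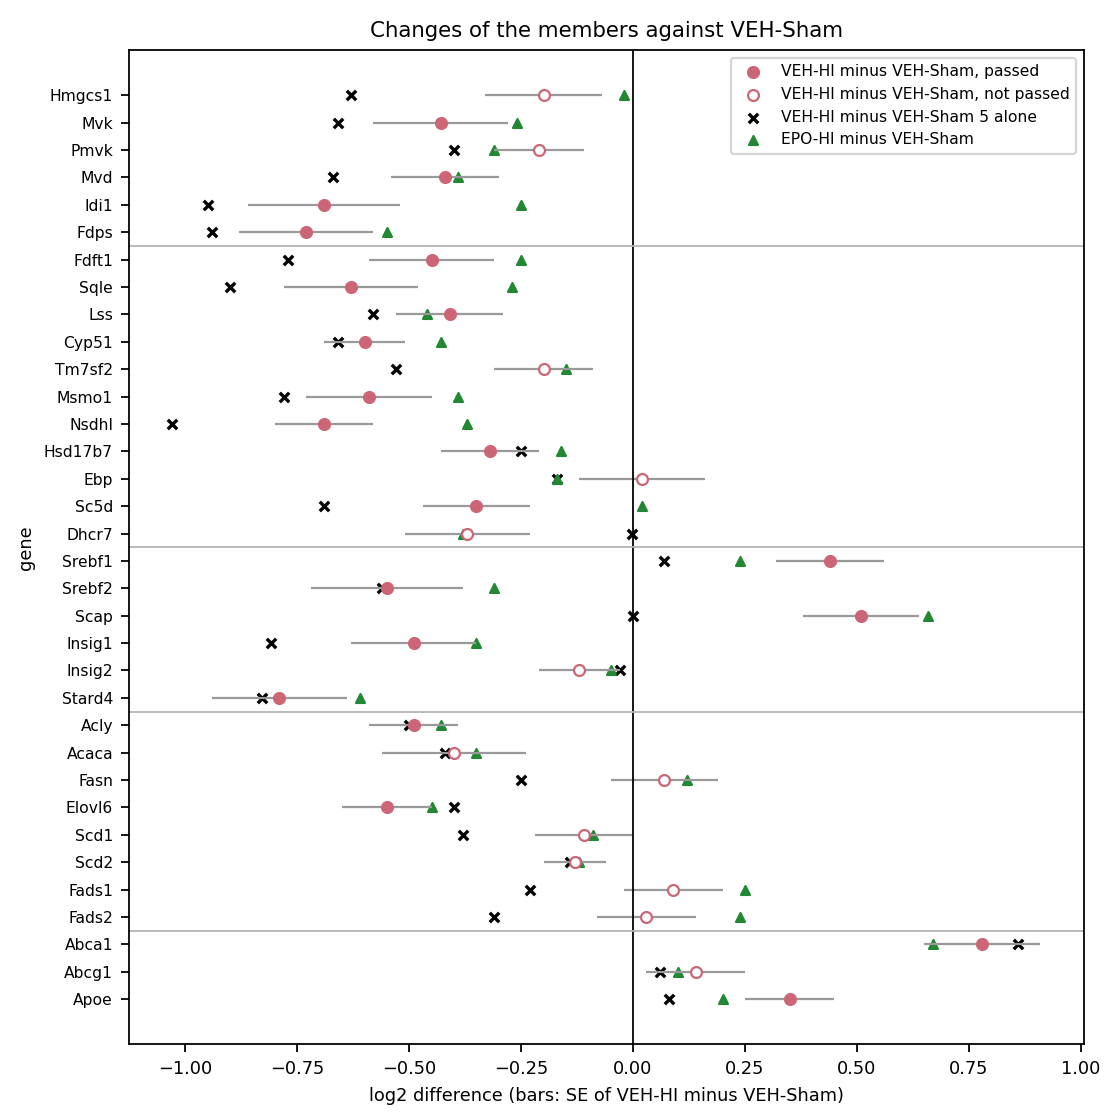
Log2 difference of each of the 34 genes: circles give VEH-HI minus VEH-Sham with its SE (filled where the adjusted p was 0.05 or less), crosses VEH-HI minus VEH-Sham 5 alone, and triangles EPO-HI minus VEH-Sham. For the cholesterol enzymes at the top most marks are left of 0, and for Scap the cross sits at 0 while the circle is at 0.51.

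Of the 6 genes of sterol sensing and transfer, 3 fell, 2 rose and Insig2 did not pass. Over all genes, 11.5% fell and 11.9% rose. The genes that rose, Scap and Srebf1, were at -0.00026 and 0.07 against VEH-Sham 5 alone. Stard4, which carries cholesterol between membranes and is a known sterol-regulated gene, had the lowest difference of the 34 genes. It read 8.33, 8.45, 8.54, 8.25 and 8.43 in sham, 7.14, 7.85, 7.76, 7.47 and 7.80 in VEH-HI, and 7.29, 8.01, 8.07, 7.90 and 7.69 in EPO-HI. All injured samples were below all sham samples. The difference was -0.79 (SE 0.15, adjusted p 0.00167), 42.3% lower, and -0.83 against VEH-Sham 5; it passed with equal medians too (adjusted p 0.018).

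Insig1, which retains Scap in the endoplasmic reticulum and is itself a sterol-regulated gene, read 8.97, 9.21, 8.98, 8.85 and 9.40 in sham, 8.17, 8.60, 8.96, 8.32 and 8.90 in VEH-HI, and 8.40, 8.82, 8.72, 8.87 and 8.87 in EPO-HI. VEH-HI 8 and 10 and EPO-HI 14 and 15 reached the sham range. It fell by 0.49 (SE 0.14, adjusted p 0.0204; -0.81 against VEH-Sham 5), and the call was lost without VEH-Sham 2, VEH-HI 6 or VEH-HI 9 (adjusted p 0.0504 to 0.0594).

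Srebf2, the factor that acts mainly on cholesterol genes, read 7.38, 8.05, 8.15, 8.06 and 7.92 in sham, 7.35, 7.51, 7.69, 6.92 and 7.35 in VEH-HI, and 7.06, 7.60, 7.83, 7.90 and 7.61 in EPO-HI. VEH-Sham 1 lay among the injured samples. It fell by 0.55 (SE 0.17, adjusted p 0.0265; -0.56 against VEH-Sham 5), and the call was lost without VEH-Sham 2, 3 or 4 or VEH-HI 9 (adjusted p 0.0611 to 0.0736).

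Scap, the escort of both factors, read 8.22, 7.71, 7.95, 8.12 and 8.64 in sham, 8.60, 8.55, 8.59, 8.58 and 8.86 in VEH-HI, and 8.63, 8.67, 8.92, 8.76 and 8.94 in EPO-HI. VEH-Sham 5 lay among the injured samples and the 4 other sham samples lay below them. The rise of 0.51 (SE 0.13, adjusted p 0.0104) was -0.00026 against VEH-Sham 5, and 0.17 (adjusted p 0.405) with the mean over the probe sets of Scap. Srebf1, the factor that acts mainly on fatty acid genes, read 7.66, 7.64, 7.69, 7.30 and 8.03 in sham, 8.26, 7.86, 8.27, 7.94 and 8.17 in VEH-HI, and 7.96, 8.04, 7.70, 7.91 and 7.92 in EPO-HI. Here too VEH-Sham 5 stood with the injured samples: the rise of 0.44 (SE 0.12, adjusted p 0.0168) was 0.07 against it, and without VEH-Sham 4 the adjusted p was 0.0561. For Scap and Srebf1 the array set and the injury cannot be told apart. Insig2, a paralogue of Insig1, was at -0.12 (adjusted p 0.38; -0.03 against VEH-Sham 5), and its 2 other tested probe sets had the opposite sign.

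Of the 8 fatty acid enzymes, 2 fell, 0 rose and 6 did not pass, where 11.5% of all genes fell. Their median was -0.12, against -0.42 for the cholesterol enzymes, and -0.27 against -0.43 after quantile normalization. The difference between the lists was not tested. Acly, which makes cytosolic acetyl-CoA for both pathways, read 10.09, 10.12, 10.14, 10.14 and 10.14 in sham, 9.67, 10.01, 9.76, 9.37 and 9.38 in VEH-HI, and 9.57, 9.74, 9.81, 9.77 and 9.62 in EPO-HI. The sham samples were close together and all injured samples were below them. It fell by 0.49 (SE 0.10, adjusted p 0.00373; -0.50 against VEH-Sham 5).

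Elovl6, which lengthens palmitate, read 8.93, 8.77, 8.94, 9.00 and 8.72 in sham, 8.23, 8.19, 8.57, 8.30 and 8.29 in VEH-HI, and 8.20, 8.36, 8.62, 8.63 and 8.31 in EPO-HI, again with no overlap. It fell by 0.55 (SE 0.10, adjusted p 0.00191; -0.40 against VEH-Sham 5). With equal medians the count of fatty acid enzymes that fell was 0, with an adjusted p of 0.051 for Elovl6 and 0.153 for Acly, and it was 0 with array set entered as a block.

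Acaca, acetyl-CoA carboxylase, the committed step, read 8.31, 8.25, 8.30, 8.09 and 8.26 in sham, 7.65, 7.69, 8.41, 7.57 and 7.90 in VEH-HI, and 7.91, 7.31, 7.92, 8.15 and 8.20 in EPO-HI. VEH-HI 8 was above all sham samples and the other VEH-HI samples were below them. The difference of -0.40 (SE 0.16, adjusted p 0.0706, and -0.42 against VEH-Sham 5) did not pass. It passed with the mean over the probe sets (-0.42, adjusted p 0.037), without VEH-HI 8 (-0.54, adjusted p 0.0137) and without EPO-HI 12 (-0.40, adjusted p 0.0377). Fasn, fatty acid synthase, was at 0.07 (adjusted p 0.71). The desaturases did not pass either: Scd1 was at -0.11, Scd2 at -0.13, Fads1 at 0.09 and Fads2 at 0.03, with adjusted p from 0.182 for Scd2 to 0.886 for Fads2. Scd2 lay between 12.45 and 12.76 in all 15 samples, and after quantile normalization it was at -0.37 (adjusted p 0.0028). Against VEH-Sham 5, 8 of 8 fatty acid enzymes were below 0, where 49.6% of all genes had a VEH-HI mean below that array. The median was -0.34 over these enzymes and 0.0026 over all genes. Other tested probe sets had the opposite sign for Fads1 (1), for Fads2 (2) and for 1 of 2 of Scd2.

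Of the 3 efflux genes 2 rose, where 11.9% of all genes rose; their median was 0.35, and 0.08 against VEH-Sham 5, where Abca1 was at 0.86, Apoe at 0.08 and Abcg1 at 0.06. Abca1, the transporter that loads cholesterol onto apolipoproteins, read 9.61, 9.31, 9.66, 9.60 and 9.45 in sham, 10.69, 10.15, 10.08, 10.57 and 10.03 in VEH-HI, and 10.50, 9.86, 10.14, 10.20 and 10.26 in EPO-HI. All 10 injured samples were above all sham samples; of the 34 genes it was the single one with all VEH-HI values above all sham values, which held for 4.59% of all genes. The rise was 0.78 (SE 0.13, adjusted p 0.000957), or 1.72-fold, and 0.86 against VEH-Sham 5.

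Apoe, the main apolipoprotein of brain lipoproteins, read 12.13, 12.03, 12.14, 11.98 and 12.41 in sham, 12.37, 12.52, 12.35, 12.57 and 12.63 in VEH-HI, and 12.49, 12.44, 12.11, 12.31 and 12.34 in EPO-HI. VEH-HI overlapped sham through VEH-Sham 5 alone, and EPO-HI through EPO-HI 13 too. The rise was 0.35 (SE 0.10, adjusted p 0.0141) and 0.08 against VEH-Sham 5. Abcg1, a partner transporter, read 7.67, 7.70, 7.76, 7.87 and 7.85 in sham, 8.18, 7.95, 7.96, 7.53 and 7.93 in VEH-HI, and 8.04, 7.88, 7.77, 7.66 and 7.98 in EPO-HI. VEH-HI 9 was below all sham samples and the other VEH-HI samples above them, and the difference of 0.14 (SE 0.11, adjusted p 0.389; 0.06 against VEH-Sham 5) did not pass, though it did with equal medians (0.38, adjusted p 0.0331). The count of efflux genes that rose was 1 after quantile normalization, where Apoe was at 0.15 (adjusted p 0.146), and 0 with array set entered as a block.

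**Figure D3:**
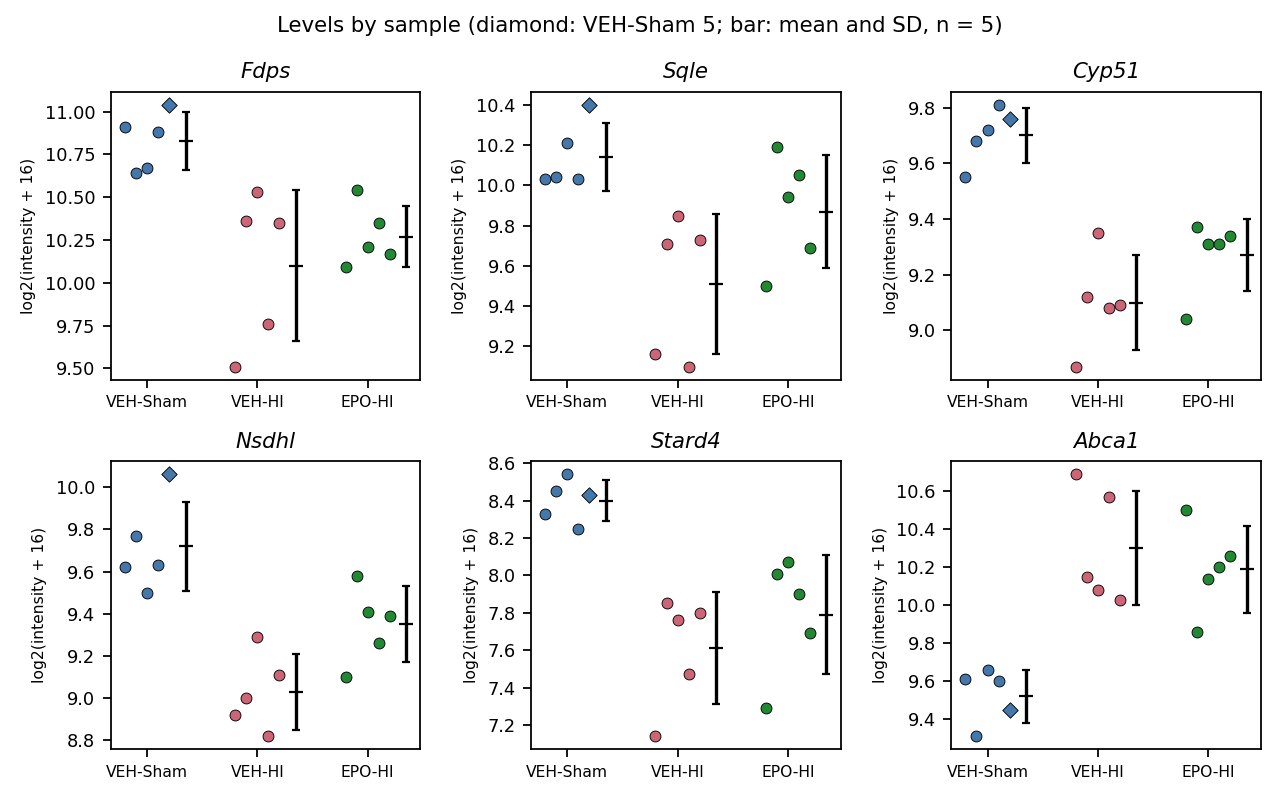
Level, log2(intensity + 16), of 6 genes in each sample; points are samples, the diamond is VEH-Sham 5 and bars are the mean and SD of a group (n = 5). Fdps, Cyp51, Stard4 and Abca1 have no overlap between sham and the 10 injured samples, with Abca1 in the opposite direction.

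Of 35 further tested genes of lipid handling, 4 fell and 6 rose, shares near those of all genes (11.5% and 11.9%), so the genes below are single values and not a result about these lists. Among 16 of synthesis, Acsl3, an acyl-CoA synthetase, fell by 0.62 (SE 0.14, adjusted p 0.00423; -0.89 against VEH-Sham 5) and Elovl7, an elongase, fell by 0.68 (SE 0.23, adjusted p 0.0376), but was at 0.42 against VEH-Sham 5. Gpam, which starts glycerolipid synthesis, rose by 0.76 (SE 0.13, adjusted p 0.000915; 0.36), though its other tested probe set had the opposite sign, and the elongase Elovl1 rose by 0.60 (SE 0.16, adjusted p 0.0124; 0.27). Among 5 regulators, Mbtps2, a protease that releases the sterol factors, fell by 0.32 (SE 0.10, adjusted p 0.0227; -0.21).

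Among 14 genes of uptake, storage and turnover, Plin2, the coat protein of lipid droplets, rose by 1.47 (SE 0.24, adjusted p 0.000876; 1.50 against VEH-Sham 5). Apod, a lipid-carrying lipocalin, rose by 1.11 (SE 0.21, adjusted p 0.0019; 0.81). Abca2, a lipid transporter, rose by 0.81 (SE 0.22, adjusted p 0.0145), but was at -0.07 against VEH-Sham 5. Clu, an apolipoprotein, also passed, at 0.35 (adjusted p 0.0445; 0.23). Npc1, which exports cholesterol from lysosomes, fell by 0.58 (SE 0.14, adjusted p 0.00665; -0.54).

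Markers of cell types were called in the same contrast, in which 11.9% of all genes rose and 11.5% fell. Of the microglia and macrophage markers 7 of 9 rose, with summed intensities of 2003 to 2512 in sham and 3254 to 5054 in VEH-HI; VEH-Sham 5 was at 2425. Their median difference was 1.00, and 0.93 against VEH-Sham 5. Of the astrocyte markers 5 of 8 rose (8813 to 11420 in sham and 11364 to 14666 in VEH-HI), with VEH-Sham 5 the highest sham sample, and their median of 0.41 was 0.12 against VEH-Sham 5. Of the neuron markers 2 of 10 fell (26079 to 30807 and 20470 to 30061), with a median of -0.19, and -0.31 against VEH-Sham 5. Of the oligodendrocyte markers 1 of 7 fell (3622 to 5525 and 3277 to 6462), 0 of 5 precursor markers passed (2403 to 3094 and 2599 to 3511), and 1 of 6 endothelial markers rose and 1 fell (1478 to 1695 and 1479 to 2126). With array set entered as a block, 0 markers of these lists passed. The sums cover every marker with a probe set, tested or not: 10 for microglia and macrophages and 8 for oligodendrocytes. None of the lists had a marker with a mean intensity of 0 over the 15 samples, and the lowest mean among them was 25 for Mog. The part of these cells in the sterol results was not tested.

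Erythropoietin before the injury was followed by no passing change in these genes. For EPO-HI minus VEH-HI, 0 of 34 passed in limma, as did 0% of all genes (0); the smallest adjusted p over all probe sets was 0.138, and 1066 of 27022 probe sets had an unadjusted p under 0.05. The mean of EPO-HI was above that of VEH-HI for 13 of 17 cholesterol enzymes and for 48.1% of all genes. VEH-HI 6 and VEH-HI 9 were the lowest of their group for 7 and 10 of the 17 enzymes, so these are not 17 separate observations. The median difference was 0.17 over these enzymes and -0.01 over all genes. For the fatty acid enzymes the EPO-HI mean was above in 8 of 8, with a median of 0.06. For the efflux genes it was above in 0 of 3, with a median of -0.11. The VEH-HI samples were shared with VEH-HI minus VEH-Sham, so the directions of these differences are not independent. A low VEH-HI mean makes VEH-HI minus VEH-Sham lower and EPO-HI minus VEH-HI higher, and a high one does the reverse.

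At an unadjusted p under 0.05, a count made after the values were seen, 4 cholesterol enzymes were higher with erythropoietin, against 1.91% of all genes: Idi1 at 0.45 (SE 0.17), Sqle at 0.36 (SE 0.15), Nsdhl at 0.32 (SE 0.11) and Sc5d at 0.37 (SE 0.12), with unadjusted limma p of 0.0177, 0.0218, 0.0106 and 0.00719 and an adjusted p of 1 for each. Sc5d was the single cholesterol enzyme with no overlap between EPO-HI and VEH-HI, which held for 0.729% of all genes. The gap was narrow, since VEH-HI 10 read 7.94 and EPO-HI 11 read 7.96. EPO-HI 14, at 8.39, stood apart from the other EPO-HI samples (7.96 to 8.08). EPO-HI 11 was the lowest of its group for 12 of the 17 enzymes and EPO-HI 12 the highest for 9. Srebf2 was at 0.24 (SE 0.17), Fads2 at 0.21 (SE 0.11), Fads1 at 0.16 (SE 0.11), Hmgcs1 at 0.17 (SE 0.13), Apoe at -0.15 (SE 0.10) and Abca1 at -0.11 (SE 0.13), none past the threshold. Fads2 read 9.41, 9.12, 9.36, 9.49 and 9.76 in sham, 9.65, 9.54, 9.44, 9.31 and 9.35 in VEH-HI, and 9.41, 9.77, 9.75, 9.75 and 9.65 in EPO-HI, with 3 EPO-HI samples above all VEH-HI samples.

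Against sham, the erythropoietin group had 6 of 17 cholesterol enzymes lower and 0 higher, where 9.46% of all genes fell and 8.86% rose. This comparison shares its sham samples with the first. The enzymes were Pmvk at -0.31 (SE 0.10, adjusted p 0.0379), Mvd at -0.39 (SE 0.12, 0.0332), Fdps at -0.55 (SE 0.15, 0.0191), Lss at -0.46 (SE 0.12, 0.0143), Cyp51 at -0.43 (SE 0.09, 0.00619) and Nsdhl at -0.37 (SE 0.11, 0.0312). Their median over the 17 was -0.27, and -0.50 against VEH-Sham 5; the 6 named enzymes were at -0.51, -0.64, -0.77, -0.63, -0.49 and -0.71 against it. The count was 3 without EPO-HI 11 and 3 without EPO-HI 14, and 0 with equal medians or with array set entered as a block.

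Stard4 was at -0.61 (SE 0.15, adjusted p 0.00997), Acly at -0.43 (SE 0.10, adjusted p 0.0107) and Elovl6 at -0.45 (SE 0.10, adjusted p 0.00848). Abca1 was 0.67 higher (SE 0.13, adjusted p 0.00378) and Scap 0.66 (SE 0.13, adjusted p 0.00414), and with the mean over probe sets Scap was at 0.18 (adjusted p 0.379), Acly at -0.23 (adjusted p 0.101) and Elovl6 at -0.29 (adjusted p 0.0602). Against VEH-Sham 5 the differences were -0.64 for Stard4, -0.44 for Acly, -0.30 for Elovl6, 0.75 for Abca1 and 0.15 for Scap. All EPO-HI values were below all sham values for 4 of the 17 enzymes (Mvd, Fdps, Lss and Cyp51), against 3.63% of all genes. Side by side, the differences from sham in VEH-HI and EPO-HI were -0.73 and -0.55 for Fdps, -0.60 and -0.43 for Cyp51, -0.69 and -0.25 for Idi1, and -0.63 and -0.27 for Sqle. They were -0.42 and -0.39 for Mvd, -0.41 and -0.46 for Lss, -0.21 and -0.31 for Pmvk, and -0.37 and -0.38 for Dhcr7.

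Within the 10 injured samples, levels were set against the strength of the glial reaction, and no gene of the set passed. A glial response index, the mean log2 of Timp1, Vim, Cd44, C1qc, Tyrobp and Cd68, ran from 8.16 in EPO-HI 13 to 9.14 in VEH-HI 6, and from 7.38 to 7.58 in sham. With the group as a covariate, the limma slope on the index passed for 0 of 34 genes, against 0.911% of all genes in either direction. The smallest adjusted p were 0.0931 for Stard4, 0.111 for Msmo1 and 0.13 for Fdft1. At an unadjusted p under 0.05, counted after the values were seen, 7 of the 17 enzymes had a slope below 0, against 5.89% of all genes.

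Pearson's r with the index was computed for 34 genes over 10 samples, with VEH-HI and EPO-HI pooled. Unlike the slope, r, rho and their permutation p take no account of the group, so a difference between the groups can enter them. For 15 of the 17 enzymes r was below 0, with a median of -0.55. The share of all genes with r below 0 was not computed. It was -0.85 for Stard4 (permutation p 0.00154; Spearman's rho -0.85, p 0.00284), -0.83 for Msmo1 (permutation p 0.00296; rho -0.87, p 0.00227) and -0.79 for Fdft1 (permutation p 0.00613; rho -0.81, p 0.00698). Without the 2 samples farthest from the median index, EPO-HI 13 and VEH-HI 6, r was -0.68, -0.69 and -0.70. For Abca1 r was 0.68 (permutation p 0.0319; rho 0.67, p 0.0391; 0.57 without the 2 samples; limma adjusted p 0.263). Ebp, unlike most enzymes, had an r of 0.68 (permutation p 0.0301; rho 0.65, p 0.049; 0.54 without the 2 samples; limma adjusted p 0.423).

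Of 10 neuron markers 0 passed on the index; their median slope was -0.43, with an unadjusted p under 0.05 and a slope below 0 for 6. The median slope was -0.33 over the enzymes and 0.02 over all genes. Their part in the enzymes' slopes was not tested. Of the 35 further lipid genes, 2 passed on the index, both higher: Plin2 (slope 1.91, SE 0.19, adjusted p 0.000446) and Ch25h, cholesterol 25-hydroxylase (slope 1.54, SE 0.32, adjusted p 0.0358), the latter named after its value was seen.

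**Figure D4:**
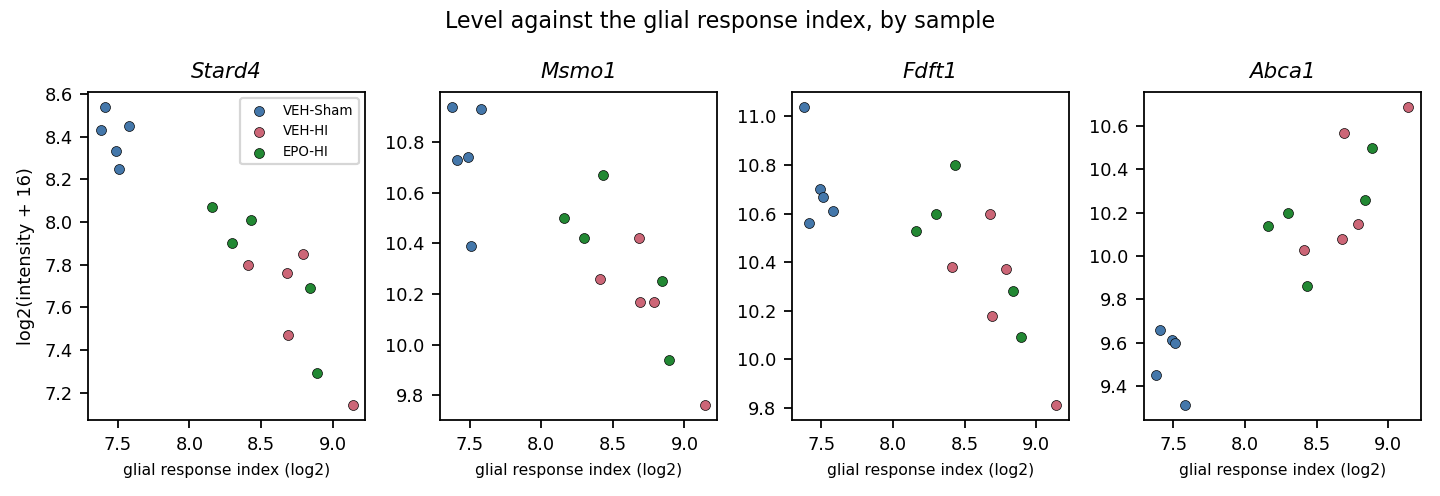
Level, log2(intensity + 16), of Stard4, Msmo1, Fdft1 and Abca1 against the glial response index (log2) in each of the 15 samples, coloured by group. Among the 10 injured samples the first 3 genes go down and Abca1 goes up from the lowest index, 8.16, to the highest, 9.14.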

How the data were processed

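The authors deposited linear intensities, 1 per probe set and array, and the values show that each array was scaled to a trimmed mean of 150.0 (2% trimmed at each end); what software summarised the probes is not stated in the labels. Each value column carries the name of 1 sample (0 were left without one). Of 45101 probe sets, 64 controls were left out; 34945 had 1 symbol in the platform's annotation table, 932 several and 9160 none, and names were checked by gene number against GRCm38.p6 with 0 symbols changed. Values were taken as log2(intensity + 16), and 27022 probe sets, the brightest 60% by mean over all arrays, were tested in limma 3.58.1 under R 4.3.3 (lmFit with 3 group means over all 15 arrays, eBayes with trend), two-sided, with Benjamini-Hochberg adjustment over all of them and a threshold of 0.05. A gene is its brightest probe set with 1 symbol. The number of arrays limits the precision. The index slope used the 10 injured samples with group as a covariate, and its p-values are from limma. Pearson's r and Spearman's rho used the same 10 samples without the group. Their permutation p-values drew 100000 resamples (two-sided), with scipy 1.17.1 for the ranks. The fit was run on simulated arrays without array sets, in which 200 of 27022 probe sets were moved by 1 log2 in VEH-HI. It called 175 of the 200 in the right direction, and 10 others. That run does not bear on the array sets or on smaller changes. Plots used matplotlib 3.10.9 and Python 3.11.15.

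The members, lists, index genes and rules were chosen with earlier results of these data known. Values in every sample were to be given for up to 4 genes of each role with the smallest p for VEH-HI minus VEH-Sham and up to 2 with the smallest p for EPO-HI minus VEH-HI, and up to 3 genes per direction of each further list that passed. The alternatives were pseudocounts of 1 and 64, quantile normalization, equal array medians, no filter on dim probe sets, the mean over the probe sets of a gene, the array set as a block, the set with VEH-Sham 5 alone, and leaving out each of the 15 samples. Sequences are from RefSeq.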

Additional observations from a re-analysis of the deposited data

Results flagged for a closer look

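Of 102 groups of 5 samples (34 genes in 3 groups), 5 held a sample whose gap to its neighbour was over 0.71 of the range of the group, Dixon's 95% limit; chance gives about 1 in 20. Cyp51 was 9.04 in EPO-HI 11 and 9.31 to 9.37 in the other EPO-HI samples. Fasn was 8.93 in the same sample and 9.30 to 9.41 in the others. Sc5d was 8.39 in EPO-HI 14 and 7.96 to 8.08 in the others. Scap was 8.86 in VEH-HI 10 and 8.55 to 8.60 in the others. Acaca was 8.09 in VEH-Sham 4 and 8.25 to 8.31 in the other sham samples. The cause was not tested.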

How the results depend on the processing

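No paired analysis was possible because the groups share no replicate numbers. The number of cholesterol enzymes lower in VEH-HI, 12, was 3 with equal medians and 0 with array set entered as a block or with VEH-Sham 5 as the lone sham sample, and 6 to 12 over the leave-outs. The number lower in EPO-HI against sham, 6, was 0 under those 3 settings and 3 to 7 over the leave-outs. Fatty acid enzymes lower, 2, came to 0 with equal medians or with the block. The count was 3 after quantile normalization, with the mean over probe sets, without VEH-HI 8 and without EPO-HI 12. Efflux genes higher, 2, came to 0 with the block, 1 after quantile normalization and 3 with equal medians. Members called between EPO-HI and VEH-HI, or on the index, numbered 0 under every setting run; on the index the block, the set and leaving out a sham sample could not be applied, since all 10 injured samples are of 1 set. Block and set give the same sign for each gene, since VEH-Sham 5 alone links the sets.

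Of 102 gene differences, 36 that were called in neither setting changed sign, as did Scap, which was called. With the block or within the set, VEH-HI minus VEH-Sham was -0.17 for Ebp, -0.00026 for Scap, -0.25 for Fasn, -0.23 for Fads1 and -0.31 for Fads2, and EPO-HI minus VEH-Sham was -0.32 for Sc5d, -0.12 for Srebf1, 0.04 for Insig2, -0.20 for Fasn, -0.07 for Fads1, -0.10 for Fads2 and -0.07 for Apoe. With equal medians, VEH-HI minus VEH-Sham was 0.05 for Hmgcs1, 0.04 for Pmvk, 0.05 for Tm7sf2, 0.13 for Insig2, 0.14 for Scd1 and 0.11 for Scd2, EPO-HI minus VEH-HI was 0.02 for Dhcr7, and EPO-HI minus VEH-Sham was 0.25 for Hmgcs1, 0.02 for Mvk, 0.03 for Idi1, 0.02 for Fdft1, 0.01 for Sqle, 0.12 for Tm7sf2, 0.12 for Hsd17b7, 0.10 for Ebp, 0.23 for Insig2, 0.18 for Scd1 and 0.15 for Scd2. With the mean over probe sets, VEH-HI minus VEH-Sham was 0.02 for Insig2, -0.20 for Fads1 and -0.18 for Fads2, EPO-HI minus VEH-HI was -0.01 for Acaca, -0.02 for Scd2 and 0.12 for Abcg1, and EPO-HI minus VEH-Sham was -0.16 for Sc5d, 0.06 for Insig2 and -0.11 for Fads1. After quantile normalization, VEH-HI minus VEH-Sham was -0.05 for Fads2 and EPO-HI minus VEH-Sham -0.0019 for Sc5d. Over the leave-outs, EPO-HI minus VEH-HI ran from -0.14 to 0.02 for Abcg1, -0.02 to 0.20 for Acaca, -0.01 to 0.16 for Acly, -0.13 to 0.06 for Dhcr7, -0.12 to 0.03 for Lss, -0.05 to 0.09 for Mvd, -0.03 to 0.07 for Scd1, -0.02 to 0.03 for Scd2 and -0.01 to 0.09 for Tm7sf2; VEH-HI minus VEH-Sham from -0.05 to 0.09 for Ebp, -0.05 to 0.11 for Fads2 and -0.02 to 0.15 for Fasn; and EPO-HI minus VEH-Sham from -0.09 to 0.09 for Hmgcs1 and -0.06 to 0.11 for Sc5d. The cause was not tested. Equal medians raised the median difference of all genes by 0.24 in VEH-HI and 0.28 in EPO-HI.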
